A study of Mus musculus with 46 samples.

Results

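Collagen genes were taken as the rows of the count table whose symbol is Col, a number, a and a number, with 10 or more estimated counts in 3 or more libraries. Of 33331 gene rows 44 symbols matched and 43 were kept. Col10a1, with a highest count of 1 in any library, was left out. The kept genes nearest the limit were Col19a1, with 10 or more counts in 11 libraries, and Col20a1, with as many in 28. The 43 genes fall into 11 fibrillar collagens, 9 fibril-associated collagens with interrupted helices (FACIT), 6 type IV chains, 6 type VI (beaded filament) chains, 4 transmembrane collagens, 2 multiplexins, 2 short-chain collagens, 1 anchoring fibril collagen (Col7a1) and 2 others.

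Collagens are trimers of alpha chains wound into a triple helix, and the chains present in a cell set which trimers it can make. Fibrillar types I and III carry most connective tissue, types II, IX, XI and XXVII are best known from cartilage, type IV forms the network of basement membranes, and types XV and XVIII lie at the border between basement membrane and stroma. In the fetal testis, Sertoli cells gather into cords and surround themselves with a basement membrane, and SOX9, which starts Sertoli cell development, is also the main activator of collagen genes in cartilage.

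The data were poly(A)-selected RNA sequencing of whole gonads of mouse embryos at E12.5, in 46 libraries and 12 groups defined by sex chromosomes and by the genotype at Enh13, a remote enhancer of Sox9. XX and XY gonads were wild type (n = 3 each), heterozygous for a 1-base insertion (1bp-ins, n = 3 each), heterozygous for a 3-base deletion (3bp-del, n = 3 each), homozygous for the insertion (n = 5 each), homozygous for the deletion (n = 5 each), or of the genotype labelled 3bp-12bp-del-hom (n = 5 XX, n = 3 XY), which the labels do not explain further. No treatment, transgene or second allele is named. The labels do not say which embryos shared a litter or whether a library pools embryos, so p-values measure the spread between these samples.

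Libraries held 29909111 to 46150400 estimated counts. The sum of 8 Sertoli markers was 22.8 to 26.8 CPM (counts scaled to library size) in wild-type XX, 318 to 1744 in the XX homozygotes and 522 to 1349 in wild-type XY, and Sox9 itself was at 7.84 to 12.1, 136 to 266 and 84.0 to 163 CPM. Levels of Xist and of 4 genes of the Y chromosome fitted every library's sex label. Wild-type XY replicate 3 stood apart. Its 7 mesonephros markers summed to 224 CPM against 17.4 and 24.9 in the other wild-type XY libraries, its 8 macrophage markers to 131 against 56.7 and 55.2, and its Sertoli markers to 522. Wild-type XX replicate 1 carried 141 CPM of 7 adrenal markers against 4.66 and 5.23, and XX 3bp-del homozygote replicate 4 carried 137 CPM of mesonephros markers against a group median of 55.0. These markers were not confined to those libraries. All wild-type XX libraries held 80.5 to 99.2 CPM of mesonephros markers, and the XX homozygote medians were 46.5 to 55.0. Adrenal markers reached 33.6 CPM in XX 1bp-ins homozygotes and 56.2 in XY 3bp-del heterozygote replicate 1. The part of such tissue in the collagen results was not tested. For some results that rest on wild-type XY replicate 3 or wild-type XX replicate 1, values without them are also given. They are not given for Col9a1 and Col2a1, for which wild-type XX replicate 1 was the highest wild-type XX library.

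The RefSeq promoter table (GRCm38.p6) held 37 windows for 34 of the 43 collagens, and Col9a3 and Col2a1 were not among them. The 250 bases before the transcription start are shown, 1 window a gene, for 3 of the collagens that were higher in wild-type XY and XX mutant gonads and for Col3a1, a stromal collagen that was lower in some XX mutants. Capitals mark the letters AACAAT (a SOX core), ACAAAG (a SOX and TCF core), GGGCGG (a GC box), TATAAA and CCAAT, on either strand. The Col9a1 window is chr1:24177360-24177609, plus strand, the Col27a1 window chr4:63215162-63215411, plus strand, the Col18a1 window chr10:77166531-77166780, minus strand, and the Col3a1 window chr1:45311288-45311537, plus strand.
Col9a1: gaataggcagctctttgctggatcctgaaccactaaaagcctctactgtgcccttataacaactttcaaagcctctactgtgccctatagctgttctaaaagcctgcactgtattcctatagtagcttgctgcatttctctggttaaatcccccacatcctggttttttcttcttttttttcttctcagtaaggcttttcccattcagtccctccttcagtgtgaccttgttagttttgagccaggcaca
Col27a1: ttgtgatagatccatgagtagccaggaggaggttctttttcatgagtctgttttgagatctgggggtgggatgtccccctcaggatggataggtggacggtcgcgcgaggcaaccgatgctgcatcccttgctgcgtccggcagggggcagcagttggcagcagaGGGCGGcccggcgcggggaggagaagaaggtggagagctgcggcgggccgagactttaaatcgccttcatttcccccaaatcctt
Col18a1: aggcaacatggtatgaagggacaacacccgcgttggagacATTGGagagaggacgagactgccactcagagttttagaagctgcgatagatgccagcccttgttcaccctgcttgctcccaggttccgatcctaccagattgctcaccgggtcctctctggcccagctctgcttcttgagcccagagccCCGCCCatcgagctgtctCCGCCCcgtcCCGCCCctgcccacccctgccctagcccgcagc
Col3a1: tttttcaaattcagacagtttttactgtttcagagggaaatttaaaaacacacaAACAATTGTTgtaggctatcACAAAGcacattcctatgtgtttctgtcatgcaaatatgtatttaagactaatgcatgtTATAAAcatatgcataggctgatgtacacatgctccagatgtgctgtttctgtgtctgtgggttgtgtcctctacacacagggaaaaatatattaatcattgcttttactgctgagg

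Col3a1 held 2 matches of AACAAT, in opposite orientation and overlapping, and was the only 1 of the 37 collagen windows with that motif, which was found in 9.42% of 32851 mouse promoters searched. None of the 3 windows shown for collagens that rose held AACAAT or ACAAAG, nor did the second windows of Col9a1 and Col18a1 or that of Col9a2, which also rose. The Col9a1 window shown held none of the 5 motifs, and its second window 1 match of CCAAT. Of the Col18a1 window, 18 bases lie in GENCODE exons. ACAAAG was in 3 collagen windows and in 16.5% of all promoters, and GGGCGG in 22 collagen windows and in 32.7% of all promoters. TATAAA was in 4 of the windows and in 12.4% of all promoters, and CCAAT in 13 and in 33.8%. These are matches of letters in a short window and say nothing of binding.

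Per transcript length, the fibrillar class had the highest mean summed level of the collagen classes in all 12 groups. TPM, a unit scaled by transcript length that allows genes to be set beside each other, gave the highest level in wild-type XX to Col3a1 (471 ± 34.8, mean ± SD, n = 3), followed by Col1a2 (321 ± 28.7), Col1a1 (248 ± 47.4), Col4a1 (182 ± 13.3) and Col18a1 (146 ± 4.62). In wild-type XY the order was Col3a1 (565 ± 302), Col18a1 (391 ± 53), Col1a2 (341 ± 194), Col1a1 (252 ± 144) and Col4a1 (248 ± 38), where replicate 3 was the highest library for the 3 fibrillar genes. In wild-type XY the order of these 5 is not resolved, because the SDs of the fibrillar genes exceed the gaps between them, and of the 5 Col18a1 alone passed the test between the wild types.

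Summed over classes, multiplexin TPM was 173 ± 3.48 in wild-type XX and 424 ± 61.0 in wild-type XY, and FACIT TPM was 104 ± 4.73 and 253 ± 19.9. In the XX homozygotes the multiplexin sums were 277 ± 133 with 1bp-ins, 199.8 ± 18.9 with 3bp-del and 326 ± 87.7 with 3bp-12bp-del, and the FACIT sums 174 ± 124, 107 ± 13.8 and 172 ± 47.7. Fibrillar TPM was 1191 ± 114 in wild-type XX against 884 ± 208, 795 ± 134 and 797 ± 74.2 in these homozygotes, and 1350 ± 687 in wild-type XY. The sum over all 43 genes was 2138 ± 100.4 in wild-type XX, 1590 ± 136 in XX 3bp-del homozygotes and 2876 ± 943 in wild-type XY. In 1bp-ins and 3bp-12bp-del homozygotes the total was 1946 ± 564 and 1936 ± 292, with ranges that overlapped wild-type XX. In whole gonads, fewer cells of a type and less RNA per cell cannot be told apart.

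**Figure D1:**
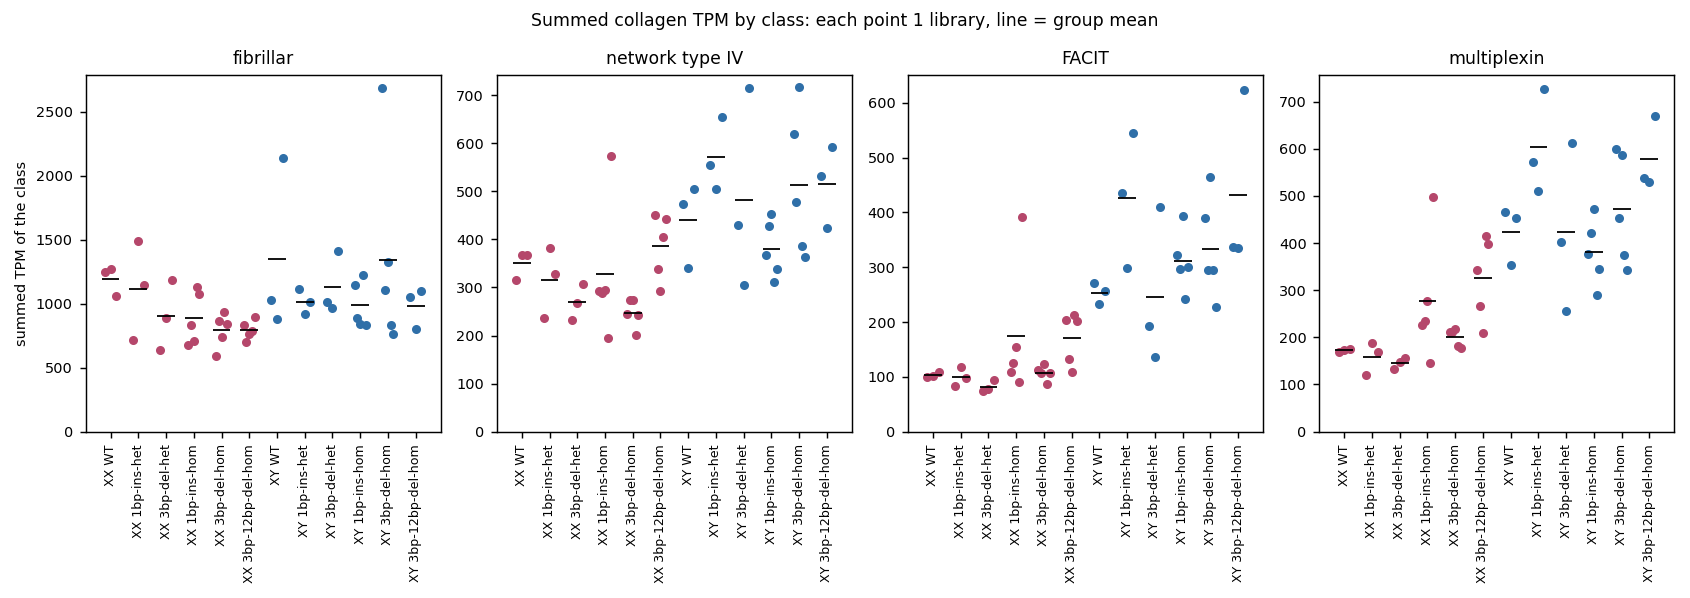
Summed TPM of the fibrillar, type IV, FACIT and multiplexin collagens in each library, by group (points are libraries, lines are group means, linear axes from 0). Multiplexin sums are 173 ± 3.48 in wild-type XX and 424 ± 61.0 in wild-type XY, and 1 library each of wild-type XY and XY 3bp-del homozygotes lies far above the others in fibrillar TPM.

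Between the wild types 13 of 43 collagens passed the test (edgeR quasi-likelihood, adjusted p under 0.05), 10 higher and 3 lower in XY, against 11.0% of all genes tested (5.10% higher, 5.94% lower). Without wild-type XY replicate 3, 23 passed, 11 higher and 12 lower. The share of all genes called in that fit is not given here, so the 11.0% is no background for this count. In XX homozygotes against wild-type XX the counts were 15 of 43 (5 higher, 10 lower) for 1bp-ins, 26 of 43 (6 and 20) for 3bp-del and 17 of 42 (7 and 10) for 3bp-12bp-del. Of all genes, 32.3% were called for 1bp-ins (17.2% higher, 15.1% lower), 44.8% for 3bp-del (21.6% and 23.1%) and 25.6% for 3bp-12bp-del (14.6% and 11.0%), so the count for 1bp-ins is near that background. Fold changes below are log2 values ± standard error from this test. The median collagen log2 fold change was 0.25, -0.18, -0.41 and -0.25 in these 4 comparisons, where the median over all genes was within 0.03 of 0. They share the wild-type XX libraries, so their values below are given side by side and not as independent repeats.

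**Figure D2:**
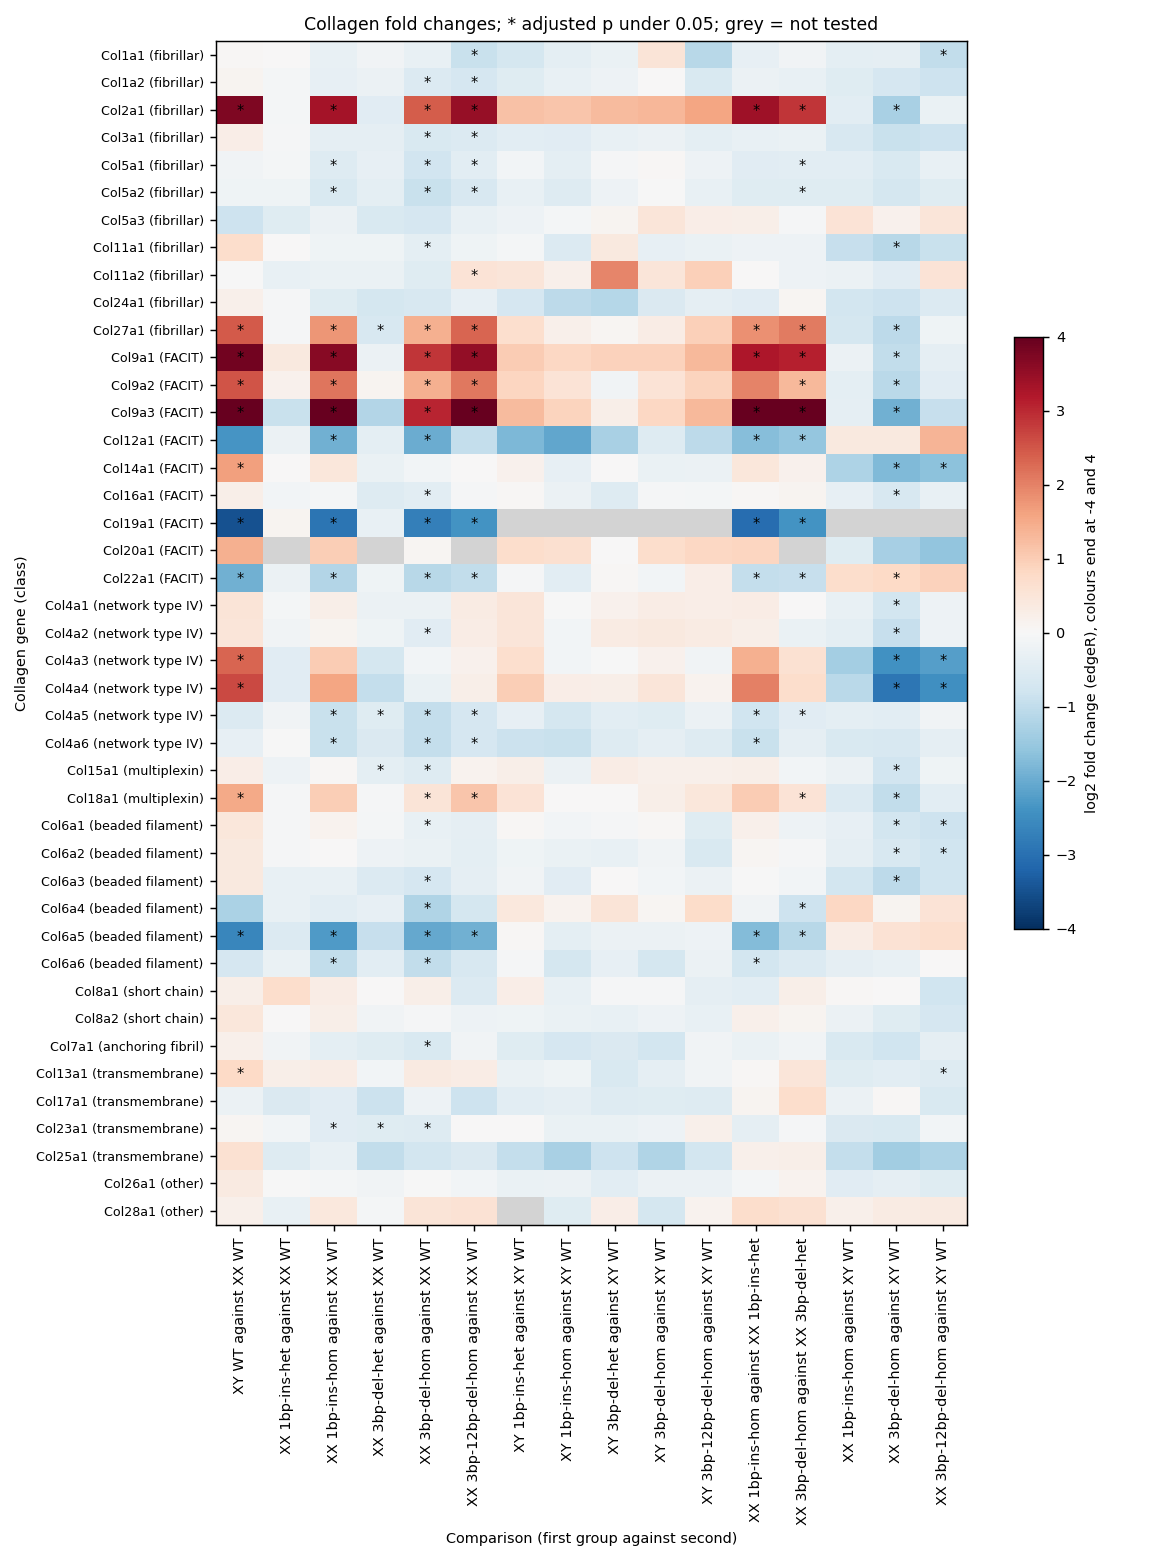
Log2 fold change of each of the 43 collagens (rows, by class) in 16 comparisons between groups (columns, first group against second). Stars mark an adjusted p under 0.05 (edgeR) and grey marks genes not tested; the columns of XY mutants against wild-type XY hold no star, and those of XX homozygotes against wild-type XX hold 15, 26 and 17.

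The chains of type IX collagen, which decorates type II fibrils in cartilage, stood out on the XY side. Col9a3 (chromosome 2, 180597790 to 180622189, GRCm38) measured 8.54, 1.02 and 1.15 CPM in the 3 wild-type XX libraries and 138, 124 and 87 in the 3 wild-type XY libraries. It measured 28.3, 42.6, 61.7, 17.9 and 307 CPM in XX 1bp-ins homozygotes, 43.2, 23.7, 37.3, 16.1 and 31.6 in XX 3bp-del homozygotes and 75.3, 37.3, 17.4, 93 and 82.5 in XX 3bp-12bp-del homozygotes. Every homozygous XX library was above all wild-type XX libraries, while replicate 5 of the 1bp-ins homozygotes was alone above the wild-type XY range. XX heterozygotes stayed low, at 2.18, 2.45 and 1.16 (1bp-ins) and 1.81, 1.24 and 1.78 (3bp-del).

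XY mutants held 308, 188 and 362 CPM of Col9a3 (1bp-ins heterozygotes), 93.3, 56.5 and 265 (3bp-del heterozygotes), 228, 203, 277, 146 and 226 (1bp-ins homozygotes), 217, 165, 313, 199 and 151 (3bp-del homozygotes) and 176, 217 and 485 (3bp-12bp-del homozygotes). Only the 3bp-del heterozygotes reached into the wild-type XY range. The log2 fold change of Col9a3 was 4.99 ± 0.82 (adjusted p = 0.012) between the wild types, 4.67 ± 1.35 (adjusted p = 0.0336) in 1bp-ins, 3.06 ± 0.78 (adjusted p = 0.0175) in 3bp-del and 4.08 ± 0.98 (adjusted p = 0.027) in 3bp-12bp-del XX homozygotes. Its size rested on wild-type XX replicate 1, the library with adrenal markers, without which the 4 values were 6.74, 6.42, 4.80 and 5.84. Without 1bp-ins homozygote replicate 5 the value was 3.40 and still called. The call in 1bp-ins homozygotes was lost without replicate 3 of that group or without wild-type XX replicates 2 or 3, and the call in 3bp-12bp-del homozygotes without replicates 4 or 5 or the same wild-type libraries. Without a filter on low counts the 1bp-ins call was lost too. The 1bp-ins and 3bp-del calls were also lost with replicate number as a block in the fit, with or without removal of the trend with gene length. Exons of Tcfl5 lie on the other strand within Col9a3, and the sources do not say whether counting used strand, so their reads cannot be told apart. Tcfl5 was at 0.992 to 5.25 CPM in all groups.

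**Figure D3:**
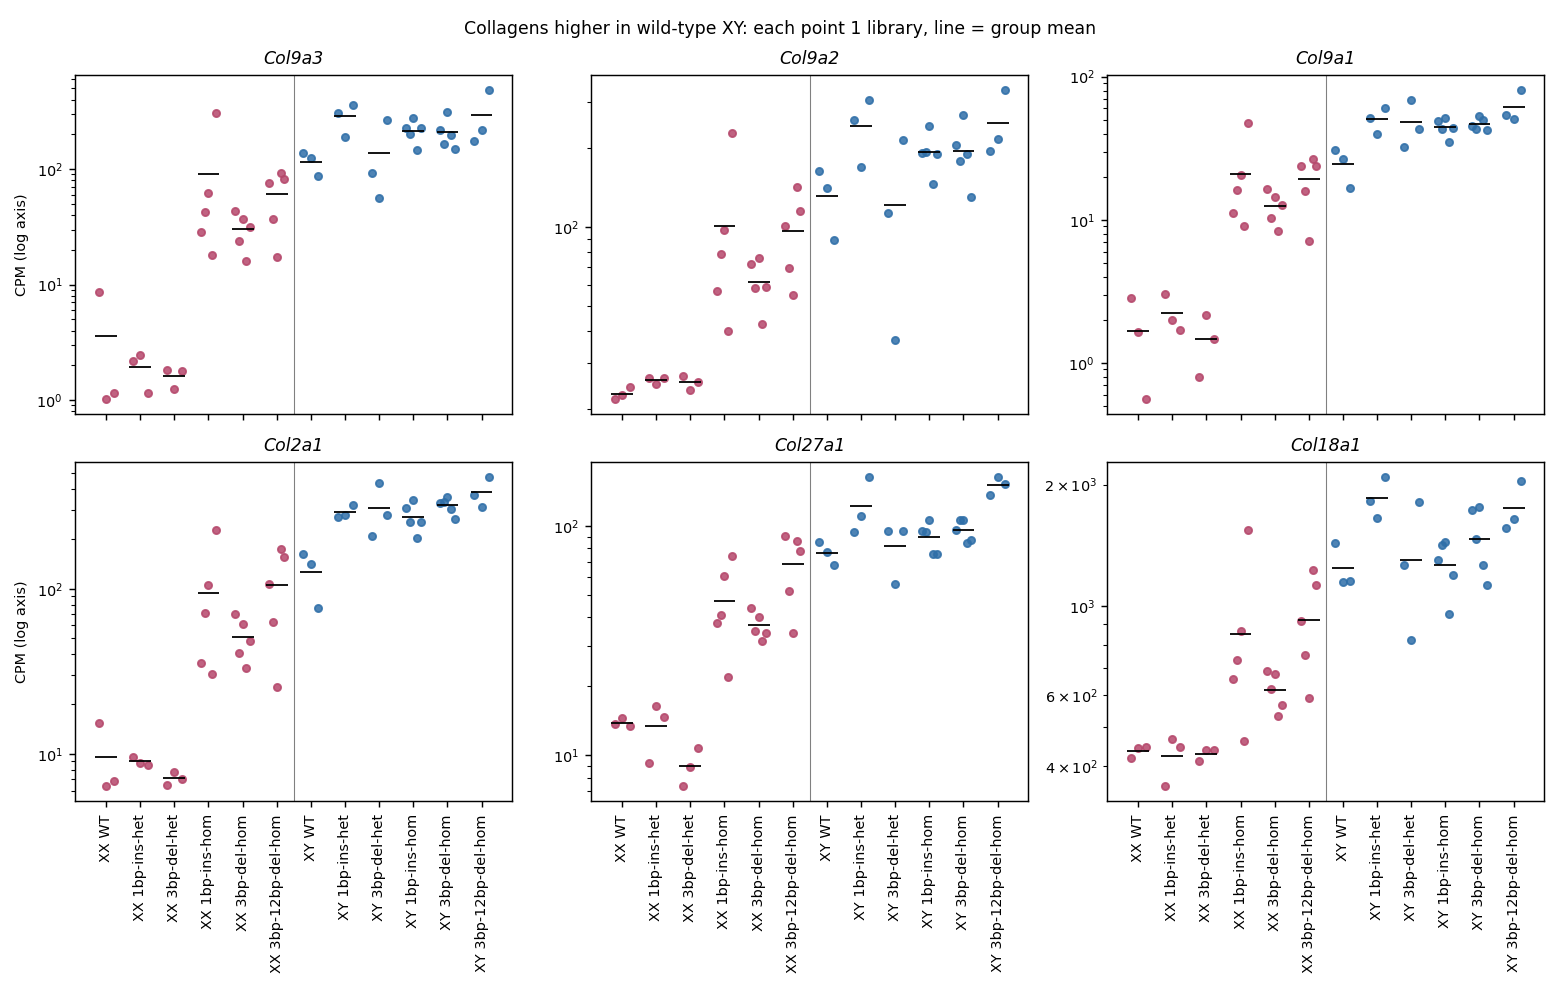
CPM (log axes) of Col9a3, Col9a2, Col9a1, Col2a1, Col27a1 and Col18a1 in all 46 libraries by group (points are libraries, lines are means, XX in pink and XY in blue). XX heterozygotes lie with wild-type XX, and all XX homozygotes lie above wild-type XX, with Col9a3 from 16.1 to 307 CPM, where the highest library lies above wild-type XY.

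Col9a2 and Col9a1, the other chains of type IX, were higher in the same groups, from a higher and a similar starting level. Col9a2 was at 21.9, 22.6 and 24.3 CPM in wild-type XX, 56.9, 78.9, 97.6, 39.9 and 229.9 in 1bp-ins, 72.3, 58.4, 75.8, 42.5 and 58.7 in 3bp-del and 101, 69.8, 54.7, 143 and 115 in 3bp-12bp-del XX homozygotes, and 164, 141 and 89.4 in wild-type XY. Its log2 fold changes against wild-type XX were 2.15 ± 0.58 (adjusted p = 0.0254), 1.42 ± 0.18 (adjusted p = 0.000355) and 2.10 ± 0.33 (adjusted p = 0.00523), and 2.51 ± 0.22 (adjusted p = 0.00114) between the wild types. Col9a1 was at 2.85, 1.64 and 0.56 CPM in wild-type XX, 11.1, 16.1, 20.6, 9.05 and 47.2 in 1bp-ins, 16.4, 10.2, 14.3, 8.3 and 12.7 in 3bp-del and 23.6, 15.8, 7.16, 26.5 and 23.8 in 3bp-12bp-del homozygotes, and 30.9, 26.5 and 16.6 in wild-type XY. Its log2 fold changes were 3.63 ± 0.75, 2.86 ± 0.47 and 3.52 ± 0.64 (adjusted p = 0.00951, 0.00158 and 0.00842) and 3.85 ± 0.55 (adjusted p = 0.007) between the wild types. For both genes no wild-type XX library overlapped any XX homozygote. The call of Col9a2 in 1bp-ins homozygotes was lost when any 1 wild-type XX library was left out.

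The 3 chains stood in different ratios in the sexes. On the TPM scale, the ratio of Col9a3 to Col9a2 was 0.154 ± 0.189 in wild-type XX (0.0441 to 0.372) and 0.932 ± 0.0837 in wild-type XY, and it was 0.742 ± 0.364, 0.553 ± 0.136 and 0.638 ± 0.197 in XX homozygotes (1bp-ins, then 3bp-del, then 3bp-12bp-del). The ratio of Col9a2 to Col9a1 went the other way, from 10.2 to 50.2 in wild-type XX to 6.73 to 6.88 in wild-type XY. These ratios were not tested. In 1 XY 3bp-del heterozygote, replicate 2, Col9a3 (56.5 CPM) and Col9a2 (36.9) were low while Col9a1 (68.9) and Col2a1 (439) were high, and its 8 chondrocyte markers summed to 188 CPM against 79.1 and 143 in the other libraries of its group, with Acan at 42.0 CPM. The part of that marker signal in the group's values was not tested.

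Among the fibrillar collagens, Col2a1 and Col27a1 were the ones that rose. Col2a1, the chain of the main cartilage fibril, measured 15.4, 6.39 and 6.81 CPM in wild-type XX and 163, 141 and 76 in wild-type XY, a log2 fold change of 3.72 ± 0.45 (adjusted p = 0.00397). It measured 35.8, 71.4, 106, 30.3 and 228 CPM in 1bp-ins, 70.6, 40.9, 61.2, 33.3 and 48.4 in 3bp-del and 107, 63, 25.3, 173 and 156 in 3bp-12bp-del XX homozygotes. No wild-type XX library reached the lowest of these. Its log2 fold changes in them were 3.32 ± 0.81 (adjusted p = 0.0179), 2.41 ± 0.40 (adjusted p = 0.00255) and 3.47 ± 0.79 (adjusted p = 0.0226), and the calls in 1bp-ins and 3bp-12bp-del homozygotes were lost without wild-type XX replicate 2 or replicate 3.

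Col27a1, a fibrillar collagen of cartilage with a short helix, was steadier between replicates. It was at 13.7, 14.5 and 13.4 CPM in wild-type XX, 37.9, 41, 60.7, 21.9 and 73.7 in 1bp-ins, 44.1, 35, 40.1, 31.5 and 34.2 in 3bp-del and 90.2, 52.1, 34.3, 86.4 and 78.3 in 3bp-12bp-del XX homozygotes, and 85, 77.4 and 67.6 in wild-type XY. These groups did not overlap with wild-type XX. Col27a1 rose by 1.78 ± 0.37 (adjusted p = 0.00958), 1.41 ± 0.11 (adjusted p = 2.29e-05) and 2.32 ± 0.35 (adjusted p = 0.00438) on the log2 scale, and by 2.46 ± 0.11 (adjusted p = 0.000165) between the wild types, where it was named after its values were seen. Col11a1 and Col11a2, the partners of type II in cartilage fibrils, did not do so in each comparison. Col11a1 had log2 fold changes of 0.70 between the wild types and -0.18 in 1bp-ins homozygotes, neither called, and was called lower in 3bp-del homozygotes (-0.40 ± 0.13). Col11a2 passed the test in 3bp-12bp-del homozygotes (0.56 ± 0.17) and not between the wild types (-0.03). Col11a1 and Col11a2 were named after their values were seen. Chondrocyte markers were present throughout, with 8 genes summing to 51.4 to 188 CPM, at most 2 of them at 0 in a library. Called higher were 2 of the 4 tested in wild-type XY, 1 of 5 in 1bp-ins, 0 of 4 in 3bp-del and 2 of 5 in 3bp-12bp-del XX homozygotes. Of all genes 5.10%, 17.2%, 21.6% and 14.6% were called higher in the same order, so 1 of 5 is near the background. The part of the chondrocyte markers in the rise of Col2a1 was not tested.

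Col18a1, the multiplexin whose C-terminal end is released as endostatin, was the most abundant collagen that rose. It measured 419.6, 445 and 447 CPM in wild-type XX and 1437, 1149 and 1152 in wild-type XY, a log2 fold change of 1.51 ± 0.12 (adjusted p = 0.00078), or 2.84-fold. In XX homozygotes it measured 659, 733, 866, 464 and 1542 CPM with 1bp-ins, 689, 623, 677, 534 and 569 with 3bp-del and 919.7, 755, 592, 1227 and 1127 with 3bp-12bp-del. Every one of these libraries was above the 3 wild-type XX libraries, and 2 of them, 1bp-ins replicate 5 and 3bp-12bp-del replicate 4, were within or above the wild-type XY range. The log2 fold change was 0.50 ± 0.08 (adjusted p = 0.000854) in 3bp-del and 1.10 ± 0.23 (adjusted p = 0.0129) in 3bp-12bp-del homozygotes. The 3bp-del call was lost in 1 joint fit of the 12 groups, and the 3bp-12bp-del call in 0 of 16 alternatives. In 1bp-ins homozygotes it was 0.98 ± 0.35 (adjusted p = 0.0677) and missed the threshold, while without replicate 5 it was 0.66 and passed.

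The heterozygous XX gonads held 357, 467 and 446 CPM (1bp-ins) and 412, 439.6 and 439 CPM (3bp-del) of Col18a1. XY mutants held 1826, 1649 and 2090 (1bp-ins heterozygotes), 1263, 823 and 1808 (3bp-del heterozygotes), 1297, 1414, 1441, 957 and 1197 (1bp-ins homozygotes), 1735, 1469, 1756, 1262 and 1127 (3bp-del homozygotes) and 1566, 1645 and 2042 (3bp-12bp-del homozygotes). XX heterozygotes overlapped wild-type XX, and the lowest XY library was replicate 2 of the 3bp-del heterozygotes. Col15a1, the other multiplexin, differed in pattern. It measured 66.4, 63.1 and 67.4 CPM in wild-type XX and 91.2, 54.5 and 92.1 in wild-type XY, which overlap, and was lower in 3bp-del homozygotes (-0.51 ± 0.05). The TPM ratio of Col18a1 to Col15a1 was 5.49 ± 0.461 in wild-type XX and 12.1 ± 1.61 in wild-type XY, and lay between 8.03 ± 1.18 and 10.1 ± 2.43 in the XX homozygotes.

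Type IV collagens split by chain pair. Col4a1 and Col4a2, the pair found in nearly all basement membranes, start head to head on chromosome 8 (Col4a1 at 11198423 to 11312826 and Col4a2 at 11312805 to 11449287), and overlap at their starts on opposite strands. Col4a1 measured 632, 735 and 748 CPM in wild-type XX and 1177, 867 and 952 in wild-type XY, and Col4a2 399.8, 472 and 489 in XX and 763, 523 and 607 in XY. The wild types did not overlap for either gene, but neither passed the test, with log2 fold changes of 0.50 ± 0.14 (adjusted p = 0.0709) and 0.47 ± 0.16 (adjusted p = 0.11). Without wild-type XY replicate 3, Col4a1 passed (0.53) and Col4a2 did not (0.50).

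In XX homozygotes Col4a1 measured 659, 705, 731, 453 and 1512 CPM with 1bp-ins, 648, 629.7, 662, 449.8 and 600.4 with 3bp-del and 976, 771, 677, 958 and 979.9 with 3bp-12bp-del. Col4a2 measured 398, 385, 438, 285 and 899.6 CPM with 1bp-ins, 347, 365, 359, 257 and 324 with 3bp-del and 598, 500.1, 409, 605 and 618 with 3bp-12bp-del. Replicate 5 of the 1bp-ins group was the highest and replicate 4 of the 3bp-del group the lowest for Col4a2, and only the 3bp-del libraries all lay below wild-type XX for that gene. The log2 fold changes of Col4a1 were 0.22, -0.24 and 0.33 and none passed. Those of Col4a2 were 0.11, -0.46 ± 0.11 (adjusted p = 0.00912) and 0.29, of which the 3bp-del value passed and was no longer called once the trend with gene length was removed (-0.04). The TPM ratio of Col4a1 to Col4a2 was 1.58 ± 0.0584 in wild-type XX, 1.65 ± 0.13 in wild-type XY and 2.05 ± 0.116 in XX 3bp-del homozygotes, where no library overlapped wild type. It was also above wild-type XX (1.52 to 1.63) in XX 1bp-ins homozygotes (1.72 to 2.13). In XY 1bp-ins homozygotes (1.81 to 1.97) it was above wild-type XY (1.56 to 1.80). This ratio was not tested. The 10 endothelial markers, genes of cells that also make a basement membrane, summed to 705 to 754 CPM in wild-type XX. In XX 3bp-del homozygotes they summed to 460.1 to 582, with 7 of 10 called lower, against 23.1% of all genes. Their part in the Col4a2 result was not tested.

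Col4a3 and Col4a4, the chains of mature glomerular basement membrane, were scarce but higher in wild-type XY. Col4a4 measured 0.751, 0.966 and 1.03 CPM in wild-type XX and 7.34, 4.24 and 5.47 in wild-type XY and was called higher by 2.63 ± 0.29 (adjusted p = 0.00253). Col4a3 measured 0.311, 0.349 and 0.529 and 2.21, 1.76 and 2.01 CPM (2.33 ± 0.32, called, and named after its values were seen). In the XX homozygotes Col4a4 was at 0.524, 0.89, 1.12, 0.279 and 10.7 CPM with 1bp-ins, 0.776, 0.456, 1.37, 0.58 and 0.593 with 3bp-del and 1.62, 0.818, 0.321, 1.28 and 1.23 with 3bp-12bp-del. Apart from replicate 5 of the 1bp-ins group, these lay between 0.279 and 1.62 CPM, and no call was made. Col4a4 and Col4a3 start head to head on chromosome 1.

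Col4a5 and Col4a6, the X-linked pair, also start head to head and were lower in the XX homozygotes. Col4a5 measured 114, 137 and 161 CPM in wild-type XX, 74.9, 71.7, 60.3, 76.8 and 78.7 in 1bp-ins, 57.6, 80.4, 67.1, 77.9 and 70.4 in 3bp-del and 99.8, 78.8, 89.1, 77 and 80.5 in 3bp-12bp-del homozygotes. No homozygous library reached the lowest wild-type XX library. It fell by 0.90, 0.96 and 0.67 on the log2 scale (adjusted p = 0.00123, 0.000358 and 0.00376), and Col4a6 fell by 0.89, 0.96 and 0.67. In wild-type XY, Col4a5 was at 54.5, 53 and 174 CPM and Col4a6 at 16.6, 13.9 and 58.9, with replicate 3 above every wild-type XX library for both. Neither passed the test between the wild types (-0.56 and -0.33), while without that replicate both were lower in XY (-1.36 and -1.29). XY mutant libraries held 71 to 84.4 CPM of Col4a5 in 1bp-ins heterozygotes and 46.2 to 68.4 in 1bp-ins homozygotes.

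The stromal fibrillar collagens of types I and III did not pass the test between the wild types. Col1a1 measured 957, 992 and 707 CPM in wild-type XX and 731, 653 and 1387 in wild-type XY, Col1a2 1089, 1059 and 936 in XX and 885, 803 and 1678 in XY, and Col3a1 1192, 1285 and 1132 in XX and 1085, 961 and 2267 in XY. For each gene, replicate 3 was above both other XY libraries and above all XX libraries, so the groups overlapped. The log2 fold changes were 0.05 ± 0.30, 0.12 ± 0.28 and 0.25 ± 0.32 (adjusted p = 0.925, 0.816 and 0.647). Without replicate 3 they turned to -0.36, -0.29 and -0.24, and Col1a2 and Col3a1 were then called lower in XY.

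In XX homozygotes these genes were lower or unresolved. Col3a1 measured 708, 783, 726, 1191 and 1231 CPM in 1bp-ins, 588, 867, 674, 946 and 836 in 3bp-del and 818, 746, 838, 808 and 864 in 3bp-12bp-del homozygotes. The 1bp-ins libraries overlapped wild-type XX and the others did not. Col3a1 had log2 fold changes of -0.35 ± 0.21 (adjusted p = 0.223), -0.62 ± 0.15 (adjusted p = 0.00806) and -0.54 ± 0.06 (adjusted p = 0.000474). Col1a2 had -0.32 ± 0.23 (adjusted p = 0.322), -0.54 ± 0.13 (adjusted p = 0.0095) and -0.66 ± 0.07 (adjusted p = 0.000381). Col1a1 had -0.31 and -0.31 in 1bp-ins and 3bp-del homozygotes, not called, and fell by 0.88 (adjusted p = 0.00118) in 3bp-12bp-del homozygotes, which held 479.5, 449, 455, 428 and 559 CPM. Every call of Col3a1, Col1a2 and Col1a1 in 3bp-del and 3bp-12bp-del homozygotes was lost in 1 joint fit of the 12 groups. The summed stromal markers (7 genes) were 886 to 942 CPM in wild-type XX, 769 to 1404 in 1bp-ins, 836 to 980 in 3bp-del and 870 to 1069 in 3bp-12bp-del homozygotes. In each of these homozygotes 2 of the 7 were called higher and 1 lower. Of all genes 17.2%, 21.6% and 14.6% were called higher and 15.1%, 23.1% and 11.0% lower. With 7 genes, such counts are near that background.

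Col5a1 and Col5a2, which nucleate type I fibrils, were also lower. Col5a2 fell by 0.61, 0.88 and 0.63 on the log2 scale in XX homozygotes (1bp-ins, then 3bp-del, then 3bp-12bp-del), and Col5a1 by 0.53, 0.76 and 0.43, all called. Both were named after their values were seen. Among the type VI chains, microfibril collagens of connective tissue, 2, 5 and 1 of 6 were lower in these homozygotes and none was higher, where 15.1%, 23.1% and 11.0% of all genes were called lower, so 1 of 6 is near the background. Those tested lower were Col6a5 (-2.28) and Col6a6 (-1.0) in 1bp-ins, and Col6a5 (-2.06), Col6a4 (-1.19), Col6a6 (-0.99), Col6a3 (-0.67) and Col6a1 (-0.29) in 3bp-del. In 3bp-12bp-del homozygotes it was Col6a5 (-1.91). Col6a5 was scarce, at 1.68, 2.5 and 3.33 CPM in wild-type XX and 0.204, 0.546 and 0.472 in wild-type XY with a log2 fold change of -2.61 ± 0.45 (adjusted p = 0.0134). That call was lost without wild-type XX replicate 2 or 3.

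Some FACIT collagens were higher in wild-type XX than in the XX homozygotes. Col12a1, which coats type I fibrils in tendon and fascia, measured 159, 203 and 239 CPM in wild-type XX, 149, 194 and 170.4 in 1bp-ins heterozygotes and 165, 142 and 155 in 3bp-del heterozygotes. It measured 92, 41.4, 40.6, 64.5 and 20.4 in 1bp-ins, 39.7, 60.3, 49, 50.1 and 55.8 in 3bp-del and 124, 109.5, 147, 57.5 and 70.9 in 3bp-12bp-del homozygotes. Every homozygous library was below the lowest wild-type XX library. It fell by 1.93 (adjusted p = 0.0115) and 1.98 (adjusted p = 4.47e-05) in the first pair, and had -0.96 ± 0.32 (adjusted p = 0.0659) in 3bp-12bp-del homozygotes, which missed the threshold. In wild-type XY it was at 9.64, 9.24 and 98.2 CPM, with the high value in replicate 3, and the difference of -2.37 ± 0.92 was not called. Without that replicate it was -4.41 and called.

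Col22a1, a collagen of tissue junctions, was lower in wild-type XY, at 2.56, 2.7 and 4.31 CPM against 8.34, 12.3 and 15.4 in wild-type XX, a log2 fold change of -1.92 ± 0.30 (adjusted p = 0.00928). In XX homozygotes it measured 6.24, 5.42, 4.64, 5.99 and 3.85 CPM with 1bp-ins, 4.12, 6.04, 6.54, 4.68 and 6.29 with 3bp-del and 7.27, 7.2, 6.33, 4.64 and 4.7 with 3bp-12bp-del, all below wild-type XX, and fell by 1.18, 1.12 and 0.97 on the log2 scale. Col19a1, a rare FACIT collagen named here after its values were seen, was at 0.673, 0.832 and 1.34 CPM in wild-type XX and 0.0874, 0.0909 and 0.0629 in wild-type XY. It neighbours Col9a1 on chromosome 1 (Col9a1 at 24177610 to 24252684, Col19a1 at 24261890 to 24587472), and the pair changed in opposite directions. Col19a1 had called log2 fold changes of -2.92, -2.73 and -2.39 in the 3 XX homozygotes, where those of Col9a1 were positive. Its counts were few, at most 46 in a library.

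Col14a1, a FACIT collagen of dense connective tissue, was higher in wild-type XY than in each XX library. It measured 196, 162 and 204 CPM in wild-type XY and 53, 60.2 and 65.6 in wild-type XX, a log2 fold change of 1.65 ± 0.12 (adjusted p = 0.000619), and was named after its values were seen. XX homozygotes held 45, 69.2, 81, 67.5 and 141 with 1bp-ins, 49.1, 57.5, 54.3, 60.8 and 53.7 with 3bp-del and 60.8, 51.2, 44.5, 72.9 and 69.6 with 3bp-12bp-del, of which 1bp-ins replicate 5 was highest. Its log2 fold changes against wild-type XX were 0.46, -0.12 and 0.02, none called. The transmembrane collagen Col13a1 was higher in wild-type XY (0.79 ± 0.14), at 16.4, 17.2 and 20.2 against 10.6, 8.83 and 11.7 CPM, and was also named after its values were seen.

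**Figure D4:**
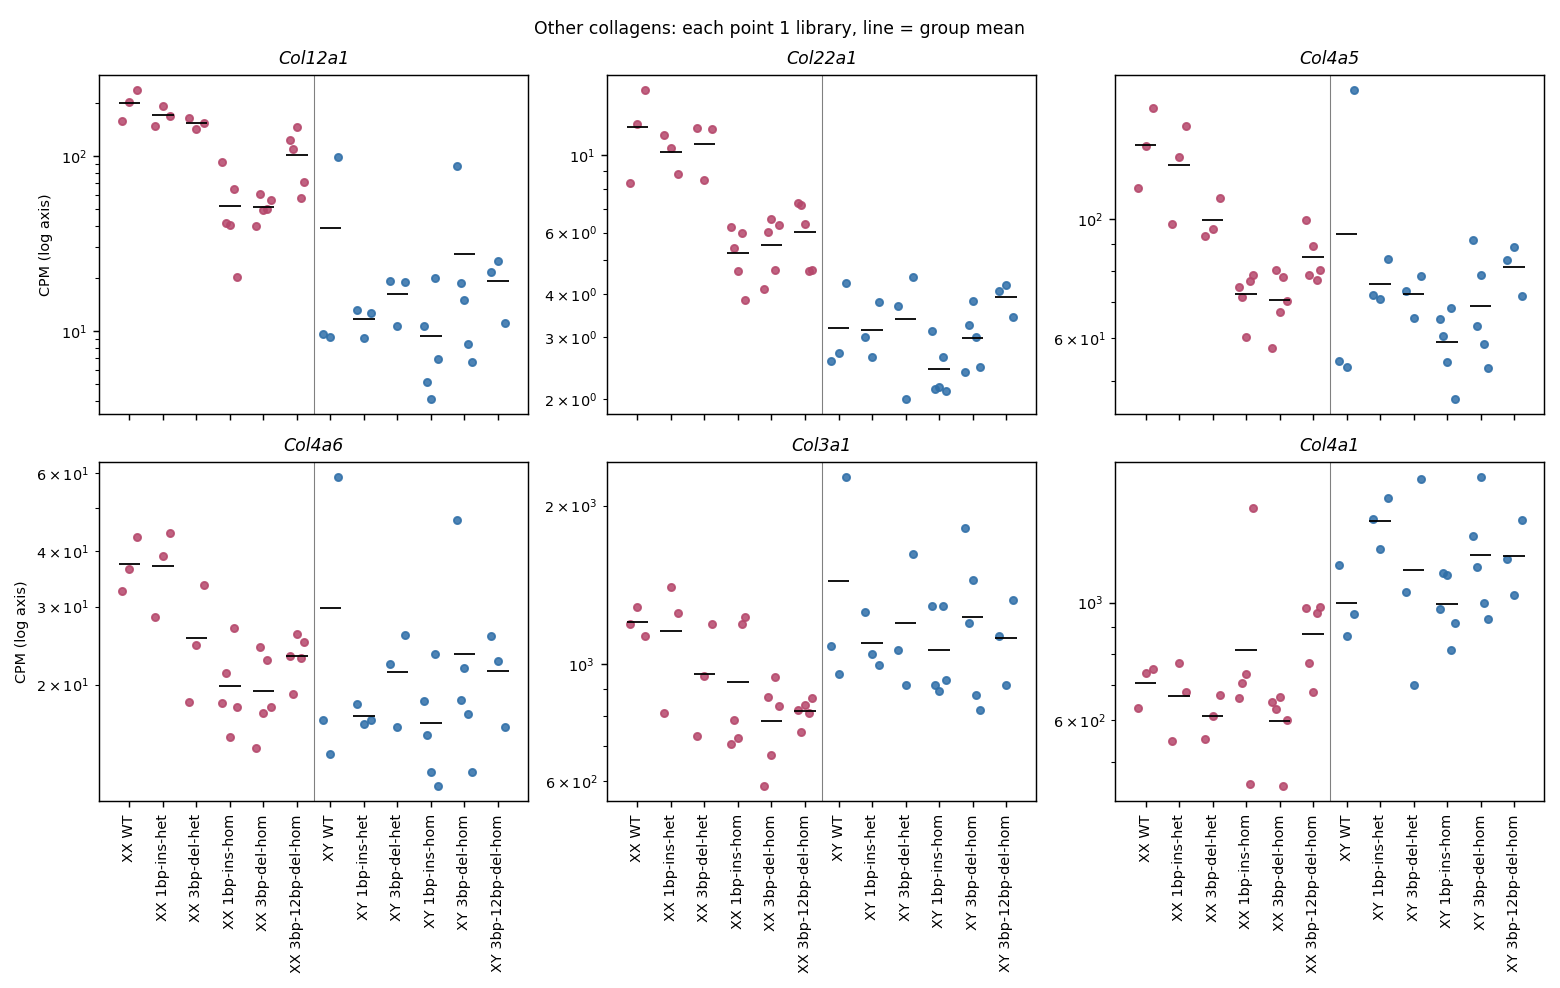
CPM (log axes) of Col12a1, Col22a1, Col4a5, Col4a6, Col3a1 and Col4a1 in all 46 libraries by group (points are libraries, lines are means, XX in pink and XY in blue). Col12a1 is at 159 to 239 CPM in wild-type XX and at 9.24 to 98.2 in wild-type XY, where the high point is replicate 3.

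XX heterozygotes had few or no calls by edgeR. In 1bp-ins heterozygotes 0 of 42 collagens were called by edgeR, as for all genes (0%), with 1 collagen at an unadjusted p under 0.05 (7.97% of all genes) and 0 by DESeq2 (0.599%). In 3bp-del heterozygotes 4 of 42 were called, all lower, against 10.9% of all genes (6.15% lower). At an unadjusted p under 0.05 there were 14 of 42 (27.4% of all genes), DESeq2 called 11 (17.1%), and the median collagen log2 fold change was -0.34 against a median near 0 over all genes. The 4 called by edgeR were Col27a1 (-0.65 ± 0.14), Col4a5 (-0.49 ± 0.12), Col23a1 (-0.47 ± 0.12) and Col15a1 (-0.39 ± 0.10), with adjusted p from 0.0273 to 0.0442. Col9a3 and Col18a1 had log2 fold changes of -1.18 ± 0.87 and -0.05 ± 0.05 there and were not called, and that of Col9a3 turned to 0.55 without wild-type XX replicate 1. The 4 calls were not stable, since none of the 4 remained when 3bp-del heterozygote replicate 1, wild-type XX replicate 2 or wild-type XX replicate 3 was left out, nor with the trend with gene length removed.

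In XY mutants against wild-type XY, edgeR called 0 collagens in each of the 5 comparisons. Over all genes it called 0% in 4 of them and 0.0130% in 3bp-12bp-del homozygotes. At an unadjusted p under 0.05 there were 9 collagens in 1bp-ins heterozygotes and 9 in 1bp-ins homozygotes, 3 in 3bp-del heterozygotes, 8 in 3bp-del homozygotes and 10 in 3bp-12bp-del homozygotes, of 41 collagens tested in the first and 42 in the others. Of all genes 6.15%, 14.2%, 4.85%, 10.9% and 6.84% were at that threshold in the same order. DESeq2 called 4, 3, 0, 2 and 6 collagens, against 0.261%, 0.765%, 0.111%, 1.13% and 0.942% of all genes. The 4 were Col9a3 (1.28), Col2a1 (1.19), Col9a1 (1.01) and Col18a1 (0.55). The 3 were Col2a1 (1.10), Col9a3 (0.88) and Col9a1 (0.84), and the 2 were Col2a1 (1.33) and Col9a1 (0.91). The 6 were Col2a1 (1.59), Col9a3 (1.31), Col9a1 (1.30), Col27a1 (0.95), Col11a2 (0.95) and Col1a1 (-1.10). These names were chosen after their values were seen.

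Homozygotes were also set against heterozygotes of the same mutation, a comparison that uses no wild-type library. For 1bp-ins 11 of 43 collagens were called (4 higher, 7 lower), against 17.3% of all genes (8.49% and 8.76%). For 3bp-del 14 of 42 were called (6 higher, 8 lower), against 27.1% (14.0% and 13.1%). The counts called higher are near that background for both mutations. The 3bp-del total, 33.3% of the collagens tested, is near it too. Col9a3 was higher by 5.58 ± 1.29 (adjusted p = 0.0284) and 4.26 ± 0.41 (adjusted p = 0.000486), and Col18a1 by 0.55 ± 0.09 (adjusted p = 0.00105) in 3bp-del, while its 1bp-ins value of 1.02 ± 0.37 (adjusted p = 0.0936) missed the threshold. Col12a1 was lower, with log2 fold changes of -1.71 ± 0.41 and -1.56 ± 0.11, and Col22a1, with -0.96 ± 0.17 and -0.93 ± 0.17. Col4a1 did not pass in either (0.30 and 0.00). Some fits without 1 library made fewer calls for 1bp-ins, down to 4 without heterozygote replicate 2. The share of all genes called in that fit is not given here, so this count has no background. The 1bp-ins call of Col12a1 was lost in 8 of 15 alternatives and that of Col9a3 in 5 of 15. Both were lost when any 1 heterozygote was left out. The 3bp-del calls of Col12a1 and Col18a1 were lost in 1 joint fit of the 12 groups, while Col22a1 kept its calls in all alternatives.

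Against wild-type XY, the 3 XX homozygotes differed in how many collagens were called. In 1bp-ins homozygotes 0 of 42 were called by edgeR (0.126% of all genes), with 7 at an unadjusted p under 0.05 (15.9% of all genes) and 1, Col14a1, by DESeq2 (4.06%). In 3bp-del homozygotes 18 of 42 were called, 1 higher and 17 lower, against 17.6% of all genes (8.60% and 8.99%). In 3bp-12bp-del homozygotes 7 of 42 were called, all lower, against 5.60% of all genes (2.21% lower). Whether the 3 genotypes differ from each other was not tested here. Without 1bp-ins homozygote replicate 5, 3 collagens were called in the 1bp-ins comparison, Col4a4 (-3.0), Col4a3 (-2.88) and Col14a1 (-1.51). The share of all genes called in that fit is not given here.

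In 3bp-del homozygotes the cartilage-type and cord collagens stayed below wild-type XY. Col9a3 had a log2 fold change of -1.92 ± 0.30 (adjusted p = 0.00463), Col18a1 -1.0 ± 0.11 (adjusted p = 0.0009) and Col2a1 -1.30 ± 0.29 (adjusted p = 0.0203). Sox9 was not lower in the same libraries, at 149 to 209 CPM against 84.0 to 163 in wild-type XY. Their Sertoli markers together were lower, with sums of 318 to 584 CPM against 522 to 1349, and Amh was at 21.2 to 86.5 against 214 to 541. Wild-type XY replicate 3 was the lowest of its group in each of these, and the others held 159 and 163 CPM of Sox9. Col4a4 (-2.89 ± 0.35) and Col4a3 (-2.43 ± 0.32) had the largest differences among the collagens called here, and Col14a1 had -1.76 ± 0.09. The gene that was higher was Col22a1 (0.80 ± 0.24, adjusted p = 0.0475), a call lost in 9 of 16 alternatives, among them the fits without wild-type XY replicate 1 or 2 or without 3bp-del homozygote replicate 1, 2, 3 or 5. Col4a1 (-0.73 ± 0.14) and Col4a2 (-0.92 ± 0.15) were lower too, of which Col4a1 lost its call without wild-type XY replicate 1 or with the length trend removed. Col2a1 lost its call without that replicate, without 3bp-del homozygote replicate 5, or with the trend removed. In 3bp-12bp-del homozygotes the 7 were Col4a4 (-2.44), Col4a3 (-2.19), Col14a1 (-1.65), Col1a1 (-0.97), Col6a1 (-0.83), Col6a2 (-0.81) and Col13a1 (-0.51). Col9a3 (-0.93 ± 0.47) and Col18a1 (-0.43 ± 0.22) were not called there. The call of Col1a1 was lost in 10 of 16 alternatives, among them the fits without wild-type XY replicate 1 or without any 1 of the 5 homozygotes, and that of Col4a4 without wild-type XY replicate 1. The 18 calls in 3bp-del homozygotes became 10 without wild-type XY replicate 1, and the 7 in 3bp-12bp-del homozygotes became 3 without it and 13 without wild-type XY replicate 3. The shares of all genes called in those fits are not given here, so these changes in count have no background.

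Whether a homozygous mutation changed a collagen more in XX than in XY was tested as an interaction. In 3bp-del 2 of 43 were called, both more positive in XX, against 3.83% of all genes (2.07% in that direction), so the total is near the background. The 2 were Col9a1 with 1.96 ± 0.47 (adjusted p = 0.0323) and Col27a1 with 1.12 ± 0.16 (adjusted p = 0.00136). In 1bp-ins 0 of 43 were called by edgeR (1.04% of all genes), with 10 at an unadjusted p under 0.05 (11.6% of all genes) and 2 by DESeq2 (2.49%), Col9a1 and Col27a1. In 3bp-12bp-del 0 of 43 were called (0.597% of all genes), with 11 at an unadjusted p under 0.05 (13.7% of all genes) and 2 by DESeq2 (2.61%), Col27a1 and Col22a1. For Col9a3 the interaction was 3.78 ± 1.18 (adjusted p = 0.199) in 1bp-ins, 2.25 ± 0.73 (adjusted p = 0.0945) in 3bp-del and 2.79 ± 0.98 (adjusted p = 0.251) in 3bp-12bp-del, none of them called. Without wild-type XY replicate 3 the counts were 3, 12 and 12, among them Col9a1 and Col27a1 in each. The shares of all genes called in those fits are not given here. Col9a1 in 3bp-del lost its call without any of 8 single libraries.

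Gene length was checked because fold change ran with length in these libraries. Relative length here is the deposited count divided by the deposited TPM, scaled so that 1 is the median gene, and over the 43 collagens it had a Spearman rho of 0.704 with the longest GENCODE transcript. All 43 were longer than the median gene, from just above it at 1.00 (Col9a3) to 4.18 (Col4a4), with a median of 2.01. Col9a3 and Col9a2 (1.07) are thus short for collagens, while Col18a1 (2.01), Col2a1 (2.03) and Col27a1 (2.34) are as long as the median collagen or longer. Across all genes, fold change had a Spearman rho with length of -0.111 between the wild types and of -0.388, -0.476 and -0.218 in XX homozygotes (1bp-ins, then 3bp-del, then 3bp-12bp-del). Over the collagens alone rho was -0.293, -0.343, -0.413 and -0.294. Genes are not independent replicates, so these are descriptions.

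With the trend removed through an offset, the numbers called were 15 of 43 between the wild types (14.0% of all genes), 12 in 1bp-ins (21.1%), 19 in 3bp-del (34.7%) and 18 of 42 in 3bp-12bp-del homozygotes (24.9%). Col9a3 and Col2a1 moved by less than 0.3 on the log2 scale. The relative length of Col9a3 is just above 1, that of the median gene, so removal of the trend could move it little. Its steady value is thus no test of length. Col9a3 had 4.66, 3.06 and 4.08 in the 3 XX homozygotes, and Col2a1 3.51, 2.69 and 3.54, all called. Col18a1 moved from 0.98, 0.50 and 1.10 to 1.18, 0.78 and 1.17, so that the 1bp-ins value, not called before (adjusted p = 0.0677), passed (adjusted p = 0.0491) and the 3bp-del value grew by more than 1.5 times. The lower calls became fewer in 1bp-ins and 3bp-del homozygotes. In 3bp-del homozygotes Col1a2 (-0.24), Col4a2 (-0.04), Col6a6 (-0.42), Col6a1, Col11a1, Col16a1 and Col23a1 were no longer called, and the median collagen moved from -0.41 to -0.09. In 1bp-ins homozygotes Col4a6, Col5a1, Col5a2 and Col23a1 were no longer called. Col12a1 (-1.66 and -1.62 in 1bp-ins and 3bp-del) and Col4a5 (-0.71, -0.69 and -0.61) stayed lower. Col4a1 passed as higher between the wild types (0.64) and in 3bp-12bp-del homozygotes (0.43) with the trend removed.

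**Figure D5:**
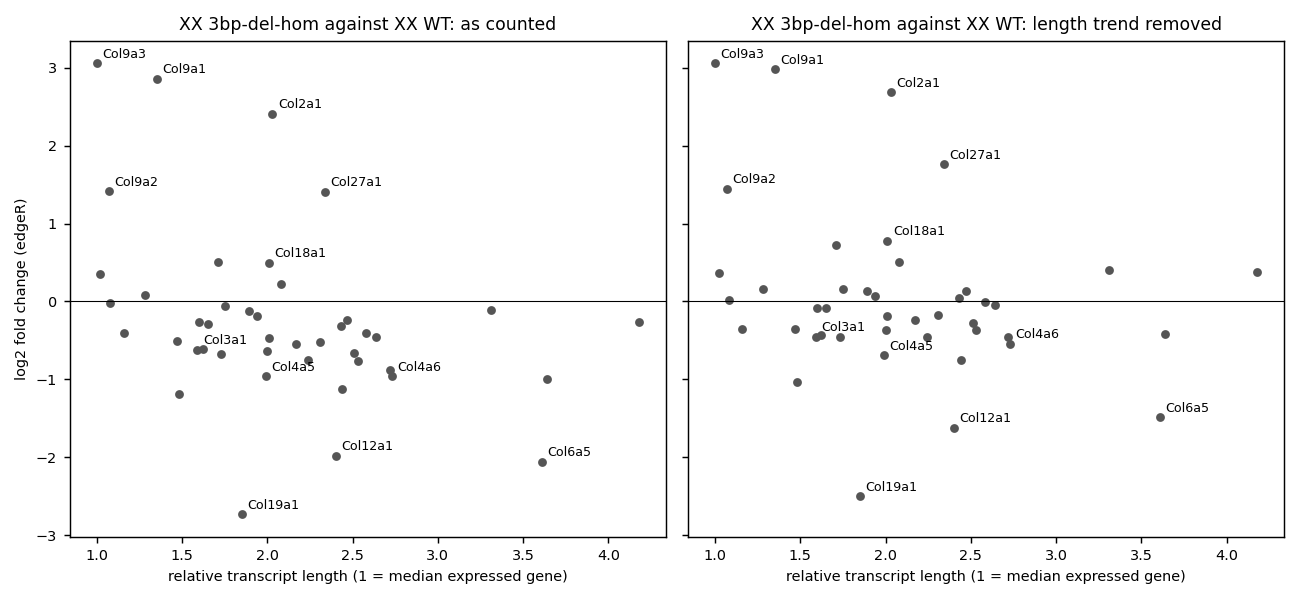
Log2 fold change of each collagen in XX 3bp-del homozygotes against wild-type XX, against its relative transcript length (1 is the median gene), as counted (left) and with the length trend over all genes removed (right). Col9a3, with a relative length just above 1 and so little room to move, stays at 3.06. The median of the 43 moves from -0.41 to -0.09, while Col12a1, Col6a5 and Col19a1 stay lowest.

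Of 62 genes that modify, fold, process, cross-link, bind or break down collagen, 59 were tested between the wild types, and 9 were higher and 1 lower in XY, against 5.10% and 5.94% of all genes. The highest were Mmp2, a gelatinase (1.40 on the log2 scale), Adamts2, which removes the N-propeptide of fibrillar collagens (1.23), Bgn, a proteoglycan bound to fibrils (0.85), Plod2, a lysyl hydroxylase (0.76), and Sparc, a collagen-binding glycoprotein (0.76). The gene that was lower was Adamts14 (-0.83), another N-propeptidase. In XX homozygotes 7 were higher and 10 lower of 60 in 1bp-ins, 10 and 17 of 59 in 3bp-del, and 10 and 12 of 59 in 3bp-12bp-del. Of all genes, 17.2% were called higher and 15.1% lower in 1bp-ins, 21.6% and 23.1% in 3bp-del, and 14.6% and 11.0% in 3bp-12bp-del, so the 1bp-ins and 3bp-del counts of this list are near that background. Sparc had log2 fold changes of 0.73, 0.57 and 0.67 there, and Timp1, an inhibitor of metalloproteinases, 0.58, 0.77 and 0.56, all called.

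Among 9 collagen receptors tested, 3, 5 and 4 were lower in XX homozygotes (1bp-ins, then 3bp-del, then 3bp-12bp-del) and none was higher, where 15.1%, 23.1% and 11.0% of all genes were called lower. Itga2, a collagen-binding integrin chain, was at -0.71, -1.07 and -0.49 on the log2 scale, and Itga1 at -0.48, -0.80 and -0.34. Serpinh1 (HSP47), the chaperone of procollagen, rose by 0.44 and 0.59 in 1bp-ins and 3bp-del homozygotes. In 3bp-12bp-del homozygotes 4 of 6 fibril proteoglycans were lower, Ogn (-1.49), Lum (-0.92), Dcn (-0.64) and Fmod (-0.34), with the cross-linking enzyme Lox (-0.57) and the fibril receptor Ddr2 (-1.08). Col1a1 was called lower in the same libraries (-0.88).

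By Pearson correlation of log2 CPM over the 46 libraries and 15664 genes, the genes most like Col9a3 were Serpine2 (r = 0.983), Amh (0.981), Dhh (0.978), Gdnf (0.977) and Sox8 (0.975). Those most like Col18a1 were Adamts16 (0.972), Col9a2 (0.966), Myo18a (0.963), Tinagl1 (0.96) and Pcsk5 (0.959). Col9a3 itself had r = 0.93 with Col18a1 and 0.971 with Col9a1. The libraries fall into groups that differ in sex and genotype, so these values describe the pattern across groups and carry no test.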

How the data were processed

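Per the labels' protocols, RNA of E12.5 mouse gonads (Qiagen RNeasy Plus micro, 140.0 ng per library) was poly(A)-selected and made into libraries with the NEBNext UltraExpress kit. The submitters' processing notes name mm10 as build. Which quantifier was run, and whether it used strand, is not given in these sources. The authors deposited estimated counts per gene symbol, of which 8.0% to 8.9% of the values in a library were not whole, and a matching table of TPM. TPM summed to 923510 to 945851 per library. Either file had 1 column that matched no sample and was not used.

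Counts were rounded and tested with edgeR 4.0.16 (R 4.3.3), using its default expression filter, TMM normalization and the quasi-likelihood F test on the libraries of each comparison, with Benjamini-Hochberg adjustment over all genes tested and a threshold of 0.05. CPM values use TMM library sizes, and TPM, as deposited, served to compare genes. Sex differences were tested as interactions. The length trend was a lowess curve (span 0.3) per library, entered as an offset. As alternatives, DESeq2 1.42.0, RLE normalization, 1 joint fit of the 12 groups, a replicate block, length correction, no filter on low counts, and leaving out each library were run. Scripts were tested on simulated data. No 2 libraries of a group were alike within sampling noise (71 pairs, lowest chi-square per degree of freedom 12.65).

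The genes described and the lists used were chosen with earlier results of these data known. Named genes are Col9a3, Col18a1, Col4a1, Col4a2, Col1a1, Col1a2 and Col3a1, and per comparison up to 5 called collagens with the largest fold change in each direction with a mean log2 CPM of 0 or more. Other names were chosen after their values were seen.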

Additional observations from a re-analysis of the deposited data

Results flagged for a closer look

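Of 125 sets of one collagen in one group of 5 libraries, 12 held a library far from the others by Dixon's test at the 95% level, which chance does in about 1 of 20 sets. Replicate 5 of the XX 1bp-ins homozygotes held 7 of them. It was at 307 CPM for Col9a3 (others 17.9 to 61.7), 1512 for Col4a1 (453 to 731), 899.6 for Col4a2 (285 to 438), 131 for Col15a1 (39.8 to 57.8), 10.7 for Col4a4 (0.279 to 1.12), 2.82 for Col4a3 (0.166 to 0.471) and 2.74 for Col6a4 (0.775 to 1.24). Its Sertoli markers summed to 1744 CPM.

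Replicate 1 of the XY 3bp-del homozygotes was at 3987 CPM for Col1a1 (others 480.0 to 891), 274 for Col5a2 (76.0 to 127), 87.9 for Col12a1 (6.64 to 18.8) and 47.0 for Col4a6 (12.7 to 21.8). Replicate 4 of the XX 3bp-del homozygotes, the library with the highest mesonephros markers of its group, was at 449.8 CPM for Col4a1 (others 600.4 to 662). The part of these markers in the values was not tested.

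The effect of homozygous 3bp-del differed between XX and XY for Col9a1, by 1.96 on the log2 scale, and for Col27a1, by 1.12, both by edgeR's interaction test. The call of Col9a1 was lost in 10 of 24 alternatives and that of Col27a1 in 0 of 24. With 4.65% of collagens called against 3.83% of all genes, the count is near the background.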

How the results depend on the processing

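Of all values recomputed under an alternative, 2803 kept their direction and side of the threshold, 146 changed sign without being called in either fit, 177 lost the threshold, 72 gained it and 5 changed sign with a call in at least 1 of the fits. Among the uncalled, Col9a3 in XX 1bp-ins heterozygotes turned from -0.90 to 0.83 without XX_WT replicate 1. The calls that changed sign were, between the wild types, Col3a1 (-0.24) and Col1a2 (-0.29) without XY_WT replicate 3 (up to 0.49 and 0.33 without replicate 2), and Col1a2 (-0.23) without the 3 libraries highest in mesonephros or adrenal markers, a setting chosen after seeing the data. In XX 3bp-del homozygotes Col4a1 (0.28) and Col4a2 (0.09) changed sign with the length trend removed together with the replicate block. The causes were not tested.

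Counts of collagens called moved as follows. For most of these settings, and for fits without 1 library, the share of all genes called is not given here. These counts are therefore not set against a background. DESeq2 called 11 in XX 3bp-del heterozygotes, 4, 3, 2 and 6 in XY 1bp-ins heterozygotes and XY homozygotes (1bp-ins, 3bp-del, then 3bp-12bp-del), 1 and 15 in XX 1bp-ins and 3bp-12bp-del homozygotes against wild-type XY, and 2, 7 and 2 for the sex differences in the same order of genotypes. With 1 fit over all 12 groups the counts were 0 in XX 3bp-del heterozygotes, 17 and 11 in XX 3bp-del and 3bp-12bp-del homozygotes, 2 and 1 in XY 1bp-ins homozygotes and 3bp-del heterozygotes, 8 for 3bp-del homozygotes against heterozygotes, 6 and 13 in 1bp-ins and 3bp-12bp-del homozygotes against wild-type XY, and 3, 4 and 1 for the sex differences. With the replicate block they were 2 in XX 3bp-del heterozygotes, 17 for 1bp-ins homozygotes against heterozygotes, and 8 and 2 in 3bp-del and 3bp-12bp-del homozygotes against wild-type XY. With the length trend removed they were 0 in XX 3bp-del heterozygotes and 11 in 3bp-12bp-del homozygotes against wild-type XY, and with the replicate block added 0 in XX 3bp-del heterozygotes, 17 for 1bp-ins homozygotes against heterozygotes and 4 in 3bp-del homozygotes against wild-type XY. Without an expression filter the 3bp-del sex difference had 1. Without the 3 libraries the counts were 25 between the wild types, 2 in XX 3bp-del heterozygotes, 1 in XY 1bp-ins heterozygotes, 1 in XY 3bp-12bp-del homozygotes, 13 in 3bp-12bp-del homozygotes against wild-type XY, and 5, 10 and 11 for the sex differences.

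Leaving out 1 library gave 11 to 23 between the wild types, 0 to 8 in XX 3bp-del heterozygotes, 0 to 1 in XY 1bp-ins heterozygotes and XY 3bp-12bp-del homozygotes, 4 to 14 for 1bp-ins homozygotes against heterozygotes, 0 to 3, 10 to 21 and 3 to 13 in homozygotes against wild-type XY (same order), and 0 to 3, 1 to 12 and 0 to 12 for the sex differences. The highest counts between the wild types and for the 3 sex differences came without XY_WT replicate 3. Replicate numbers were not taken as pairs, since in 0 of 16 comparisons was every pair's correlation over 0.1 (range -0.32 to 0.351). With so few pairs in a comparison, this rule cannot exclude a shared litter or batch. Scarce collagens such as Col19a1 and Col4a3 rest on few counts.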
